A study of Mus musculus with 21 samples.

Results

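Germinal centre and plasma cell genes were followed through the skin and the skin-draining lymph nodes of mice that overexpress *Ifnk* in the epidermis. The 9 genes were chosen by name: *Bcl6*, *S1pr2*, *Mef2b* and *Mybl1* for the germinal centre B cell, and *Prdm1*, *Xbp1*, *Sdc1*, *Tnfrsf17* and *Mzb1* for the plasma cell. All 9 were found once in each expression table of 55491 genes. After removal of genes with low counts, 9 of the 9 were tested in skin and 8 in lymph nodes, where *Tnfrsf17* was too low.

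Germinal centres form in B cell follicles when activated B cells divide, mutate their immunoglobulin genes and compete for help from T follicular helper cells. BCL6 is the transcriptional repressor that keeps a B cell in this state. Cells that leave to become plasma cells switch on PRDM1 (Blimp-1), a repressor that shuts off the B cell program, and XBP1, the factor that enlarges the secretory machinery of the endoplasmic reticulum for antibody release. In lupus, plasma cells are the source of autoantibodies. Several of these genes also work outside B cells: syndecan-1, the product of *Sdc1*, is abundant on keratinocytes, PRDM1 acts in keratinocytes and sebaceous glands, and XBP1 acts in many secretory cells. A level measured in whole skin is therefore not the level of a B cell.

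The *Ifnk* transgenic (TG) mice carry *Ifnk*, an epidermal type I interferon, under the keratin 14 promoter, and were backcrossed from C57Bl/6 to BALB/c. Wild-type (WT) mice were BALB/c. Skin was taken at 12 months of age from 3 WT samples, 2 nonlesional TG (NL) samples and 4 lesional TG (L) samples, none of them treated. Inguinal lymph nodes came from 4 groups of 3 samples, WT and TG mice left untreated (NoTx) or exposed to UVB. The UVB dose was 250 mJ/cm2 at 310 nm on 3 days a week for 2 weeks, followed by 2 weeks of observation, and the age of these mice is not given in the sources used here. The labels name no mouse, sex or body site and put all samples in batch 1, so p-values measure only the spread between these samples, and whether an NL and an L sample share a mouse is not given. Per the paper's methods, lesional skin was removed wherever a lesion occurred. Nonlesional skin came from the back and from areas comparable to the lesion sites. The site of each skin sample is not given, so a difference of site cannot be told apart from one of lesion. In whole tissue, fewer cells of a type and less RNA per cell cannot be told apart.

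Total counts ranged from 40499078 to 56511276 per skin library and from 27599809 to 36428435 per lymph node library. Values are given as CPM (counts relative to the effective library size), scaled within each tissue, and adjusted p-values are from edgeR with a threshold of 0.05. Skin libraries carried keratinocyte markers in all groups, with summed levels of 13762 to 16991 CPM in WT, 25498 to 25920 CPM in NL and 11663 to 29912 CPM in L skin. Skeletal muscle markers summed to 27449 to 37966 CPM in WT and 24.3 to 7195 CPM in L skin, hair follicle matrix and shaft markers to 7.65 to 10.5 CPM in WT and 946 to 2731 CPM in L skin, and mitosis genes to 29.8 to 50.5 CPM in WT and 203 to 474 CPM in L skin. The part of these tissue differences in the results below was not tested. In lymph nodes, summed B cell markers lay between 2070 and 2726 CPM in 11 libraries and at 1397 CPM in TG NoTx replicate 5.

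Per length of transcript, the 9 genes divided between the tissues in ways that did not follow their names. *Sdc1* was 55.7 to 225 RPKM (CPM divided by exon length in kilobases) in skin and 0.692 to 1.55 RPKM in lymph nodes. *Mzb1*, which encodes a chaperone of immunoglobulin assembly in B and plasma cells, was 15.6 to 32.9 RPKM in lymph nodes and 0.0391 to 1.81 RPKM in skin. *Xbp1* and *Prdm1* were also higher per length in skin, *Mef2b* was higher in nodes and the ranges of *Bcl6*, *S1pr2* and *Mybl1* overlapped. *Tnfrsf17* was 0.243 to 1.32 RPKM in skin and 0 to 0.184 RPKM in nodes. Whether plasma cells carried its skin counts was not tested. The tissues were normalized separately, so these levels were not tested against each other.

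Promoter sequence was searched for 3 binding motifs of factors from this pathway, on both strands, in the 250 bases before each start site (RefSeq, GRCm38.p6, 32851 promoters). The endoplasmic reticulum stress element, CCAAT followed after 9 other bases by CCACG, is the site through which ATF6 and XBP1 act on chaperone genes. It was found in 37 promoters (0.113%) and in none of the 7 members searched. The chromosome of *Mzb1* was left out of the search, and no promoter of *Mybl1* was in the set. The element was present in 3 of 12 unfolded protein response and secretory genes (*Hspa5*, *Pdia6*, *Dnajc3*) and 2 of 14 other plasma cell genes (*Creld2*, *Derl3*). The 5 windows are shown because *Hspa5*, *Pdia6* and *Creld2* rose in lesional skin, as given further on. *Dnajc3* did not pass there, and no skin value of *Derl3* is given. The capitals mark the fixed letters of the motif. In *Creld2* and *Derl3* the match is on the opposite strand. The motif ended between 46 and 137 bases before the start site.

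*Hspa5*, chr2:34772013-34772055, plus strand: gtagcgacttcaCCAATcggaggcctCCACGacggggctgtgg
*Pdia6*, chr12:17266479-17266521, plus strand: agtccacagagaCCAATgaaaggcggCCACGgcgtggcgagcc
*Dnajc3*, chr14:118937815-118937857, plus strand: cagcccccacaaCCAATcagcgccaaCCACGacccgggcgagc
*Creld2*, chr15:88819508-88819550, plus strand: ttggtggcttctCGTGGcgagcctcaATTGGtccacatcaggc
*Derl3*, chr10:75893230-75893272, plus strand: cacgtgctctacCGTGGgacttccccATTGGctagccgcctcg

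The palindrome TTCNNNGAA, of the kind bound by BCL6 and by STAT factors, was present in 2306 promoters (7.02%) and, among the members, in *Bcl6* only. One *Bcl6* start site had 1 match and a second start site, inside the gene, had 3, shown in capitals below because BCL6 is known to bind its own promoter. The PRDM1 core GAAAGTG was present in 1317 promoters (4.01%) and, among the members, in *Tnfrsf17* only. These matches are letters in a window and were not measured as sites.

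*Bcl6*, chr16:23981284-23981533, minus strand: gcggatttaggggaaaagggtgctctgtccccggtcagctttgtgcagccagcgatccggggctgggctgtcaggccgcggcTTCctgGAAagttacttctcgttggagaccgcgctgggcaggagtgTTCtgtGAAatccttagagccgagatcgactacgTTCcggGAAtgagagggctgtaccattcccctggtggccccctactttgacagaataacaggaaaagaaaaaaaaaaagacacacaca

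In lesional skin *Prdm1* and *Sdc1* rose, *Mzb1* rose from near 0, and *Bcl6* and *Mef2b* fell. These were 5 of 9 members called in L against WT skin, where 43.1% of all 19101 tested genes were called, 23.0% higher and 20.2% lower. The share of members, 55.6%, was near that background. The plasma cell members *Xbp1* and *Tnfrsf17* and the germinal centre members *S1pr2* and *Mybl1* did not pass. The libraries of L and WT skin did not overlap for the same 5 members, against 49.4% of all tested genes.

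*Prdm1* (chromosome 10, 44437177 to 44528501, GRCm38) was 31.5, 19.6 and 19.7 CPM in WT replicates 8 to 10, 34.5 and 41.3 CPM in NL replicates 2 and 3, and 71.1, 76.0, 73.7 and 64.1 CPM in L replicates 4 to 7. The 3 groups did not overlap, with WT lowest and L highest, and the L libraries lay close together. L skin exceeded WT by 1.59 ± 0.18 on the log2 scale (SE, 3.02-fold, edgeR adjusted p = 0.000381).

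*Sdc1* (chromosome 12, 8771323 to 8793715) was 257, 233 and 212 CPM in WT, 387 and 394 CPM in NL, and 533, 858, 524 and 522 CPM in L skin. WT was again lowest and L highest without overlap, and L replicate 5 stood above the other 3 L libraries. The difference between L and WT was 1.38 ± 0.20 on the log2 scale (SE, 2.60-fold, edgeR adjusted p = 0.000984). The keratin 14 gene, *Krt14*, whose promoter drives the transgene, also rose, from 1220 to 1374 CPM in WT to 1416 to 4665 CPM in L skin (1.41 ± 0.36, SE, edgeR adjusted p = 0.0131). Of the 10 keratinocyte markers, 3 rose, 1 fell and 6 did not pass, and 9 were higher in L, called or not. Their sum had a median of 23702 CPM in L and 14984.5 CPM in WT skin, while L replicate 7, at 11663 CPM, was below all WT libraries. In NL against WT skin 10 of the 10 were higher and 0 were called. The part of keratinocytes in the *Sdc1* difference was not tested.

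*Mzb1* was at 3, 2 and 3 counts in the WT libraries, 26 and 5 in NL and 45, 23, 100 and 10 in L skin, which corresponds to 0.180 to 2.20 CPM in L. All 4 L libraries were above all WT libraries, but NL and L overlapped and the L libraries spread widely. The summed counts gave a ratio of L to WT of 14.3, with an exact 95% interval of 7.11 to 33.7 that covers counting error only. The fitted difference was 3.84 ± 0.98 on the log2 scale (SE, edgeR adjusted p = 0.0131), a value that depends on how low counts are treated. Without L replicate 6 it was 2.99, and without WT replicate 9 the adjusted p was 0.0516. *Mzb1* overlaps the annotation of a neighbouring gene on the same strand, so its reads can be split between them.

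*Xbp1* and *Tnfrsf17* did not pass the test in skin. *Xbp1* (chromosome 11, 5520659 to 5525893) was 180 to 196 CPM in WT, 188 and 211 CPM in NL and 164 to 268 CPM in L skin, with L spanning the other groups and a log2 difference from WT of 0.11 ± 0.16 (SE, edgeR adjusted p = 0.601). *Tnfrsf17* (chromosome 16, 11313812 to 11320074), which encodes the survival receptor BCMA of long-lived plasma cells, was 0.198 to 1.07 CPM in WT and 0.271 to 0.692 CPM in L skin, with the ranges overlapping and a log2 difference of -0.28 ± 0.59 (SE, edgeR adjusted p = 0.733). The count of *Tnfrsf17* was 8 to 47 per skin library.

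*Bcl6* (chromosome 16, 23965052 to 23988852) was 121, 108 and 78.9 CPM in WT, 83.8 and 84.7 CPM in NL, and 53.3, 48.7, 43.5 and 36.9 CPM in L skin. Every L library was below every WT and NL library, while NL lay within the WT range. L skin differed from WT by -1.17 ± 0.17 on the log2 scale (SE, 0.444-fold, edgeR adjusted p = 0.000896). *Bcl6* is also expressed in muscle and fat, and adipocyte markers summed to 7441 to 10962 CPM in WT and 817 to 4270 CPM in L skin. Their part in the *Bcl6* difference was not tested.

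*Mef2b* (chromosome 8, 70139711 to 70167488), a transcription factor that acts upstream of *Bcl6* in germinal centre B cells, was 17, 18 and 34 counts in WT, 30 and 21 in NL, and 9, 9, 6 and 6 in L skin. The L libraries, at 0.108 to 0.222 CPM, were all below the WT range of 0.388 to 0.841 CPM. The difference was -1.81 ± 0.44 on the log2 scale (SE, edgeR adjusted p = 0.0110). *Mef2b* overlaps *Borcs8* on the same strand in the annotation, so these few reads cannot be assigned to it with certainty.

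*S1pr2*, a receptor that holds germinal centre B cells in the follicle, was 14.4 to 18.6 CPM in WT and 18.5 ± 0.61 CPM (mean ± SD, n = 4) in L skin, a log2 difference of 0.23 ± 0.13 (SE, edgeR adjusted p = 0.182). *Mybl1*, a MYB family factor of dividing germinal centre cells, was 2.14 to 3.06 CPM in WT and 1.55 to 3.37 CPM in L skin, a log2 difference of -0.04 ± 0.30 (SE, edgeR adjusted p = 0.925). For both genes the WT and L libraries overlapped.

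**Figure D1:**
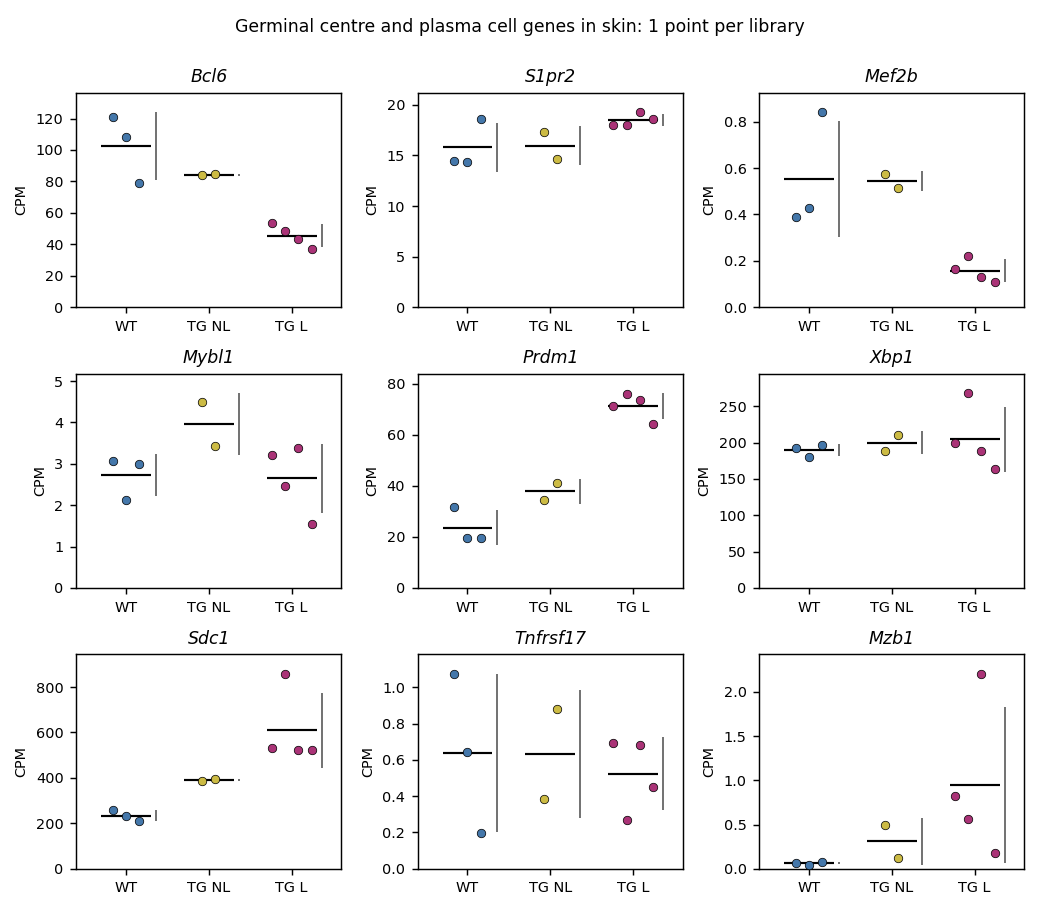
CPM of the 9 genes in each skin library (points), by group (WT, TG NL, TG L), with the group mean (bar) and SD (vertical line). *Prdm1* and *Sdc1* step upward from WT (19.6 to 31.5 and 212 to 257 CPM) to L (64.1 to 76.0 and 522 to 858 CPM), and *Bcl6* steps down to 36.9 to 53.3 CPM in L.

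Lesional skin was also set against nonlesional skin of the same genotype. *Bcl6*, *Mef2b* and *Prdm1*, 3 of 9 members, were called, where 25.0% of all tested genes were called. The log2 differences of L from NL were -0.89 ± 0.18 for *Bcl6* (SE, edgeR adjusted p = 0.0102), -1.79 ± 0.48 for *Mef2b* (SE, edgeR adjusted p = 0.0275) and 0.91 ± 0.21 for *Prdm1* (SE, edgeR adjusted p = 0.0144). *Sdc1* differed by 0.64 ± 0.22 without passing (SE, edgeR adjusted p = 0.0666), and *Mzb1* by 1.57 ± 0.94 (SE, edgeR adjusted p = 0.251). The L and NL libraries of *Sdc1* did not overlap, as for 49.4% of all tested genes. *S1pr2* and *Mybl1*, also not called, did not overlap either. DESeq2 called 4 members, *Sdc1* included, with 28.0% of genes called. These 3 edgeR calls rested on only 2 NL libraries. Without NL replicate 2 the adjusted p was 0.0683 for *Bcl6*, 0.147 for *Mef2b* and 0.126 for *Prdm1*, and without NL replicate 3 it was 0.0764, 0.122 and 0.0673, and that of *Mef2b* was 0.0565 and 0.0536 without L replicates 6 and 7, a lone NL library being assumed to vary like the other groups.

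Nonlesional TG skin was then compared with WT skin, neither of which carried lesions. With edgeR, 0 of 9 members and 0 of all tested genes passed, while 2 members, *Prdm1* and *Sdc1*, and 7.67% of all genes had an unadjusted p under 0.05. DESeq2 called 0 members and 0.309% of genes. The log2 differences of NL from WT were 0.68 ± 0.21 for *Prdm1* (SE, edgeR adjusted p = 0.568), 0.74 ± 0.23 for *Sdc1* (SE, edgeR adjusted p = 0.568) and 2.27 ± 1.08 for *Mzb1* (SE, edgeR adjusted p = 0.676). The NL libraries lay above all WT libraries for these 3 genes and *Mybl1*, as they did for 18.6% of all tested genes. The 3 skin comparisons share libraries and are not independent of each other.

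A general list of 16 unfolded protein response and secretory genes was examined next. It is not limited to genes that XBP1 controls. In L against WT skin, 9 of the 16 rose, 1 fell and 6 did not pass. The share of the list called was 62.5%, beside 43.1% of all tested genes. The list median was 0.41 on the log2 scale, where the median of all tested genes was 0.06. *Sec61b*, a subunit of the channel into the endoplasmic reticulum, was 40.5 to 43.1 CPM in WT and 64.2 to 104 CPM in L skin, a difference of 0.99 ± 0.16 (SE, edgeR adjusted p = 0.00151). *Manf*, a secreted stress protein, rose by 0.84 ± 0.10 (SE, edgeR adjusted p = 0.000383) and *Ssr2*, of the translocon, by 0.69 ± 0.09 (SE, edgeR adjusted p = 0.000619). The chaperone *Hspa5*, named here after its values were seen because its promoter carries the element printed above, rose by 0.41 ± 0.14 (SE, edgeR adjusted p = 0.0445). *Pdia6* rose by 0.43 ± 0.13 (SE, edgeR adjusted p = 0.0263), and *Dnajc3*, with the same element, differed by -0.06 (edgeR adjusted p = 0.590). *Herpud1*, of the degradation pathway of the endoplasmic reticulum, was the gene that fell, by 0.54 on the log2 scale. Against NL skin, 10 of the 16 rose and 1 fell, where 13.2% of all tested genes rose. The level of *Xbp1* itself did not pass in either comparison, and its splicing is not measured by counts per gene.

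Of 16 other plasma cell genes, 7 rose and 3 fell in L against WT skin (62.5%, beside 43.1% of all tested genes). The list median was 0.58, where that of all tested genes was 0.06. The summed level of the list ran the other way, from 1286 to 1913 CPM in WT to 643 to 971 CPM in L skin. The most abundant of these genes was *Cav1*, with means of 1271 CPM (WT) and 353 CPM (L). The 3 called genes with the largest differences were *Cd28* (1.91 ± 0.51, SE, edgeR adjusted p = 0.0157), *Slamf7* (1.91 ± 0.40, SE, edgeR adjusted p = 0.00568) and *Cav1* (-1.85 ± 0.32, SE, edgeR adjusted p = 0.00234). Without WT replicates 9 and 10 the adjusted p of *Cd28* was 0.0608 and 0.0595, and without WT replicate 8 its log2 difference was 2.50. *Cd28* is a T cell costimulatory receptor, *Slamf7* is carried by cytotoxic lymphocytes as well as plasma cells, and *Cav1* encodes the caveolar protein of endothelial cells and adipocytes. Among the genes of protein secretion on this list, *Creld2* rose by 0.98 ± 0.14 (SE, edgeR adjusted p = 0.00102). *Irf4*, the factor that acts with *Prdm1* to make a plasma cell, fell by 1.16 on the log2 scale (edgeR adjusted p = 0.0244). *Creld2* and *Irf4* were named after their values were seen, and skin values of the other secretion genes on this list are not given.

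Of 15 tested other germinal centre B cell genes, 4 rose and 1 fell in L against WT skin. The share called was 33.3%, below the 43.1% of all tested genes. The list median was 0.59, where that of all tested genes was 0.06. *Spib*, an ETS factor of B cells and plasmacytoid dendritic cells, was at 4 to 7 counts in WT and 18 to 92 in L skin and rose by 2.99 ± 0.72 (SE, edgeR adjusted p = 0.0101). *Basp1* rose by 1.46 ± 0.30 (SE, edgeR adjusted p = 0.00489) and *Efnb1*, an ephrin that is not restricted to B cells, by 1.16 ± 0.17 (SE, edgeR adjusted p = 0.00117). *Siglech*, a marker of plasmacytoid dendritic cells looked up after these values were seen, was 3.19 to 11.2 CPM in WT and 0.617 to 3.30 CPM in L skin. These ranges overlapped, and the cell source of the *Spib* counts was not tested.

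B cell markers gave no common direction in lesional skin. Of 9 tested, 3 rose, 1 fell and 5 did not pass. *Blk* rose by 2.29 ± 0.78 (SE, edgeR adjusted p = 0.0416), *Cd22* by 2.20 ± 0.65 (SE, edgeR adjusted p = 0.0236) and *Fcrla* by 2.41 ± 0.77 (SE, edgeR adjusted p = 0.0319). *Ebf1*, which adipocytes also express, fell by 1.98 on the log2 scale, and it made up most of the summed level of the list (69.1 to 93.7 CPM in WT and 16.8 to 32.8 CPM in L skin). *Pax5*, the factor that defines the B cell lineage, was at 16 counts or fewer in every skin library. Of 8 T cell markers, 5 rose and 0 fell in the same comparison, and of 11 tested T follicular helper genes, 5 rose and 1 fell, with 43.1% of all genes called. The medians of these lists were 1.72 for the T cell markers and 0.73 for the T follicular helper genes. The part of other T cells in the T follicular helper values was not tested. *Icos*, on the T follicular helper list, was 0.0950 to 0.223 CPM in WT and 2.20 to 6.79 CPM in L skin, with no overlap and a difference of 4.82 ± 0.69 (SE, edgeR adjusted p = 0.000918). *Pdcd1* rose by 4.47 ± 0.79 (SE, edgeR adjusted p = 0.00335). *Sh2d1a* had 0 counts in every WT library and was at least 3.28-fold higher in L skin, taking 3 counts per library as the floor.

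The antibody genes themselves did not move as one. Of 13 immunoglobulin constant genes, 12 were matched and 10 tested in skin, of which *Igha* rose, *Ighm* and *Ighd* fell and 7 did not pass. In L against WT skin 30.0% of the tested list was called, beside 43.1% of all tested genes. Called or not, 8 of the 10 were higher in L, and the list median was 2.49, where that of all tested genes was 0.06. The summed level of the list was 82.6 to 110 CPM in WT and 40.5 to 256 CPM in L skin. *Igha*, the heavy chain of IgA, was 0.525, 0.902 and 2.13 CPM in WT, 1.38 and 0.883 CPM in NL, and 6.30, 13.5, 96.5 and 3.03 CPM in L skin. All L libraries were above all others, with L replicate 6 far above the rest. The difference was 4.66 ± 1.36 (SE, edgeR adjusted p = 0.0258), but it was 2.68 without L replicate 6, and the adjusted p was 0.0843, 0.0829 and 0.0520 without WT replicates 8, 9 and 10.

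*Ighm*, the heavy chain of IgM, was 103, 106 and 66.2 CPM in WT, 209 and 124 CPM in NL, and 29.9, 20.6, 51.1 and 51.1 CPM in L skin, a difference of -1.27 ± 0.35 (SE, edgeR adjusted p = 0.0197). Its levels in L were below all WT and NL libraries. Without WT replicate 8 the adjusted p was 0.0609 and without WT replicate 9 it was 0.0624. *Ighd* differed by -1.51 ± 0.53 (SE, edgeR adjusted p = 0.0467) and kept the call in 1 of 9 fits that left out a library. *Jchain*, which joins IgA and IgM into polymers, was 0.0912, 0.190 and 6.60 CPM in WT and 1.89, 14.2, 80.3 and 1.51 CPM in L skin, overlapping and not called (edgeR adjusted p = 0.198). L replicate 6 was the highest library for *Mzb1*, *Igha* and *Jchain*. Immunoglobulin constant genes resemble each other, so the split of reads among them is uncertain.

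**Figure D2:**
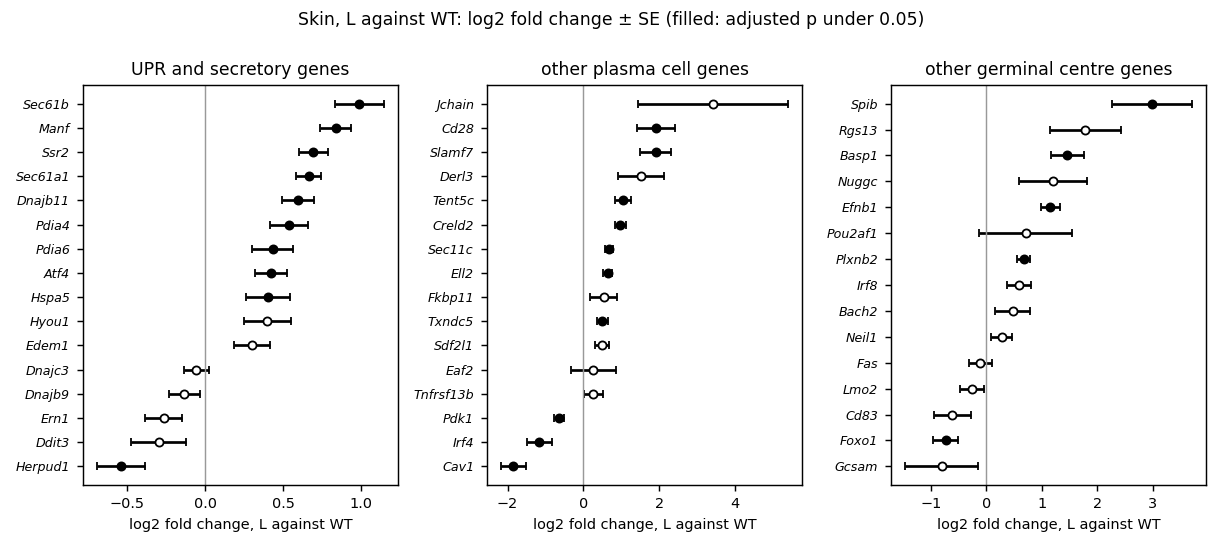
Log2 fold change of L against WT skin (horizontal axis) for the genes of 3 lists, with SE bars, filled where the edgeR adjusted p was under 0.05. Of the unfolded protein response and secretory genes 9 of 16 lie to the right and filled, of the other plasma cell genes 7 of 16, and of the other germinal centre genes 4 of 15. Of all tested genes, 23.0% were called higher and 20.2% lower.

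For the genes that support follicles and plasma cells, 25.0% and 44.4% of the lists were called in L against WT skin, beside 43.1% of all tested genes. Of 8 tested follicular dendritic cell genes, *Clu* rose (1.33 ± 0.25, SE, edgeR adjusted p = 0.00316) and *Enpp2* fell (-0.85 ± 0.26, SE, edgeR adjusted p = 0.0286). Both are also expressed outside follicles. The *Enpp2* call was lost without WT replicate 8, WT replicate 9 or L replicate 6 (adjusted p up to 0.102). Of 9 plasma cell survival and homing genes, 2 rose and 2 fell. *S1pr1*, the receptor for exit from tissue and a gene of endothelial cells, fell by 1.53 on the log2 scale (edgeR adjusted p = 0.00169), *Ccr10* rose by 1.47 ± 0.51 (SE, edgeR adjusted p = 0.0448) and *Cxcr4* by 0.99 ± 0.30 (SE, edgeR adjusted p = 0.0262). The *Ccr10* call was kept in 1 of 9 fits that left out a library. The *Cxcr4* call was lost without WT replicate 8, WT replicate 10 or L replicate 6 (adjusted p up to 0.0910).

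The genes most like the members across the 9 skin libraries were listed by Pearson correlation of log2 CPM over 15936 genes, as a description. *Prdm1* was closest to *Sppl3*, *Pnpla1* and *Arf6* (r = 0.992, 0.992 and 0.989). *Sdc1* was closest to *Ephx3*, *Ildr1* and *Krt17* (r = 0.993, 0.992 and 0.990). *Mzb1* was closest to *Casp1*, *Spib* and *Pyy* (r = 0.981, 0.979 and 0.974), and *Bcl6* to *Tmem106b*, *Ppara* and *Crebl2* (r = 0.979, 0.978 and 0.976). *Pnpla1* and *Krt17* are epidermal genes, and *Ppara* is a regulator of fat metabolism. *Prdm1* and *Sdc1* had r = 0.938 with each other. All these values include the difference between the groups, and the libraries share that difference.

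In the lymph nodes, the germinal centre genes *Mybl1*, *S1pr2* and *Bcl6* were higher after UVB in WT mice without passing the test. With edgeR, 0 of 8 members were called, where 4.98% of all 16173 tested genes were called. At an unadjusted p under 0.05 there were 3 members and 26.3% of all genes, and DESeq2 called 2 members, *S1pr2* and *Mybl1*, with 14.3% of genes called. An edgeR fit of the WT libraries alone called *Bcl6*, *S1pr2* and *Mybl1*, with 15.9% of genes called.

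*Mybl1* (chromosome 1, 9667415 to 9700209) was 2.99, 4.77 and 2.06 CPM in WT NoTx nodes and 24.9, 11.9 and 9.19 CPM in WT UVB nodes. The groups did not overlap, and WT UVB replicate 7 was highest. The difference was 2.23 ± 0.67 on the log2 scale (SE, 4.68-fold, edgeR adjusted p = 0.0828). In TG nodes it was 3.70, 2.696 and 11.8 CPM without UVB and 21.3, 8.14 and 8.35 CPM after UVB, and the groups overlapped through TG NoTx replicate 6 (1.05 ± 0.64, SE, edgeR adjusted p = 0.651).

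*S1pr2* (chromosome 9, 20962361 to 20976781) was 6.94, 7.53 and 5.90 CPM in WT NoTx nodes and 20.5, 11.1 and 11.0 CPM in WT UVB nodes, without overlap. The difference was 1.07 ± 0.34 (SE, 2.10-fold, edgeR adjusted p = 0.0818). In TG nodes it was 7.60, 6.53 and 13.7 CPM without UVB and 16.5, 8.63 and 14.3 CPM after UVB, again overlapping through TG NoTx replicate 6 (0.51 ± 0.33, SE, edgeR adjusted p = 0.677).

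*Bcl6* was 49.3, 42.3 and 64.2 CPM in WT NoTx and 66.2, 69.7 and 77.1 CPM in WT UVB nodes, again without overlap (0.45 ± 0.18, SE, edgeR adjusted p = 0.148). In TG nodes it was 61.7, 39.3 and 57.8 CPM without UVB and 77.3, 56.3 and 65.1 CPM after UVB (0.32 ± 0.18, SE, edgeR adjusted p = 0.614). *Mef2b* was 1.12, 3.48 and 1.54 CPM in WT NoTx and 7.27, 2.25 and 2.97 CPM in WT UVB nodes, with the ranges overlapping (1.03 ± 0.57, SE, edgeR adjusted p = 0.268). Its difference was 0.36 without WT UVB replicate 7 and 1.65 without WT NoTx replicate 2. WT UVB libraries lay above all WT NoTx libraries for 4 members, *Bcl6*, *S1pr2*, *Mybl1* and *Xbp1*, as they did for 19.8% of all tested genes.

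The UVB responses of both genotypes were also averaged, which sets 6 libraries against 6. With edgeR, 0 of 8 members and 8.61% of all genes were called, and at an unadjusted p under 0.05 there were 4 members and 28.2% of genes. The averaged difference was 1.64 ± 0.46 for *Mybl1* (SE, edgeR adjusted p = 0.0573), 0.79 ± 0.24 for *S1pr2* (SE, edgeR adjusted p = 0.0590), 0.39 ± 0.13 for *Bcl6* (SE, edgeR adjusted p = 0.0804) and 0.17 ± 0.07 for *Xbp1* (SE, edgeR adjusted p = 0.119). *Mef2b* differed by 0.71 ± 0.40 (SE, edgeR adjusted p = 0.262). DESeq2 called *Bcl6*, *S1pr2* and *Mybl1*, with 14.7% of genes called, and an edgeR fit with the B cell marker level as a covariate called *Bcl6*, with 9.82%. Over the 4 alternatives that kept every library, the adjusted p was between 0.00941 and 0.127 for *Mybl1* and between 0.00719 and 0.137 for *S1pr2*. Without TG NoTx replicate 6 edgeR called *S1pr2* and *Mybl1* (3.81% of genes), without TG UVB replicate 11 *S1pr2* (6.40%), and without TG UVB replicate 12 *Mybl1* (22.8%).

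The plasma cell members were at similar levels in all 4 groups of nodes and none passed. *Prdm1* was 10.8 to 13.9 CPM in WT NoTx, 10.6 to 11.6 CPM in WT UVB, 8.92 to 14.6 CPM in TG NoTx and 11.7 to 12.9 CPM in TG UVB nodes, with an averaged UVB difference of 0.03 ± 0.12 (SE, edgeR adjusted p = 0.893). *Xbp1* was 52.2 to 69.6 CPM over all 12 libraries. *Mzb1* was 18.9 to 40.0 CPM over all libraries, with an averaged UVB difference of -0.12 ± 0.19 (SE, edgeR adjusted p = 0.717). The lowest *Mzb1* library, TG NoTx replicate 5, was also the lowest in B cell markers.

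*Sdc1* was 2.64 to 5.92 CPM over all node libraries, with an averaged UVB difference of -0.29 ± 0.17 (SE, edgeR adjusted p = 0.276). *Tnfrsf17* had 0 to 5 counts per node library and 0 in each of the 3 TG UVB libraries, which allows up to 3 counts in each. It was not tested, and no difference was detectable at this depth.

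**Figure D3:**
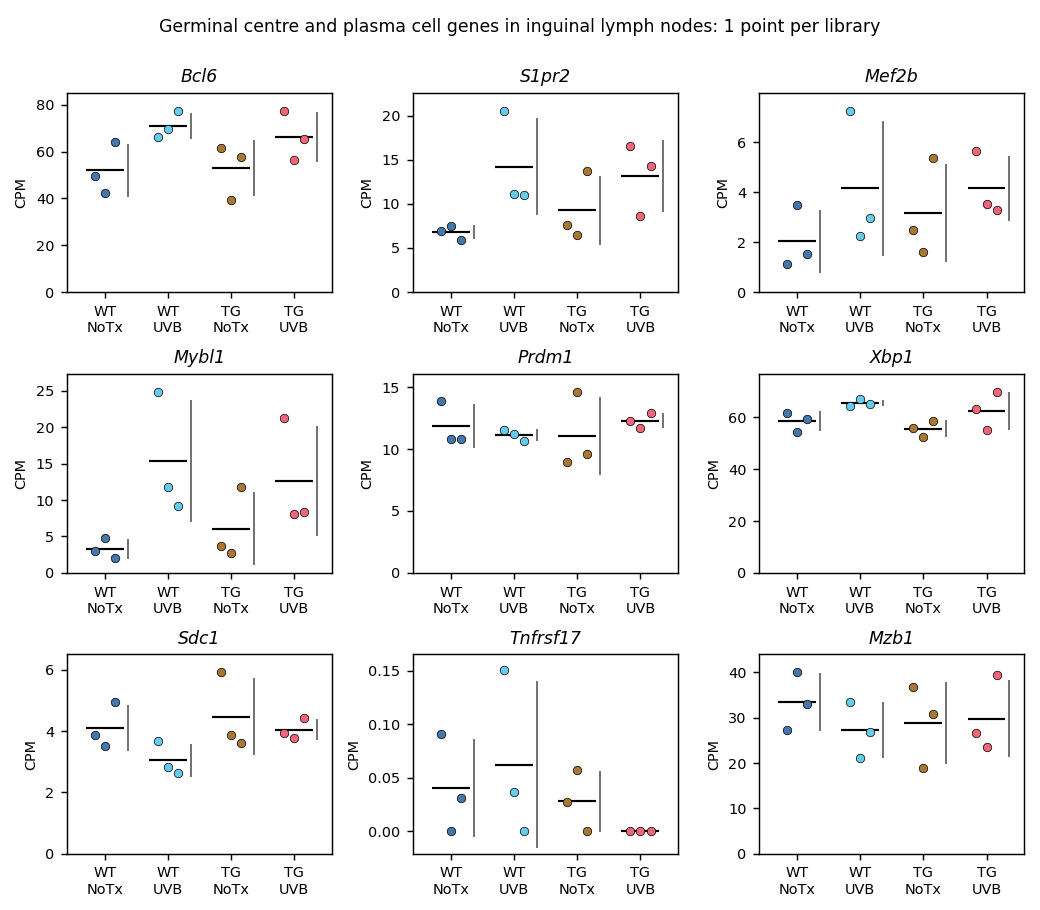
CPM of the 9 genes in each lymph node library (points), by genotype and UVB, with the group mean (bar) and SD (vertical line). *Mybl1* and *S1pr2* lie higher in the WT UVB libraries (9.19 to 24.9 and 11.0 to 20.5 CPM) than in WT NoTx (2.06 to 4.77 and 5.90 to 7.53 CPM), while *Prdm1* and *Mzb1* overlap in all groups except for *Prdm1* between the UVB groups.

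Whether the transgene changed any member in the nodes, or its response to UVB, was tested directly. With edgeR, 0 of 8 members passed between TG and WT without UVB, 0 after UVB, 0 in the average of both and 0 in the interaction of genotype with UVB, and at an unadjusted p under 0.05 there were again 0 in each, against 3.39%, 6.99%, 4.66% and 5.45% of all genes. DESeq2 also called 0 in each. Over all genes edgeR called 0, 0, 1 (0.00618%) and 0. After UVB the TG libraries lay above all WT libraries for 2 members, *Sdc1* (0.41 ± 0.24, SE, edgeR adjusted p = 0.753) and *Prdm1* (0.14 ± 0.18, SE, edgeR adjusted p = 0.875), as they did for 5.39% of all tested genes. The interaction, the UVB response of TG minus that of WT, was -1.17 ± 0.92 for *Mybl1* (SE, edgeR adjusted p = 0.850) and -0.56 ± 0.47 for *S1pr2* (SE, edgeR adjusted p = 0.851). Neither passed the test with 3 libraries a group. In TG nodes alone, edgeR called 0 genes for UVB and 9.32% had an unadjusted p under 0.05, none of them a member. DESeq2 called 134 genes there (0.845%) and edgeR without TG UVB replicate 12 called 236 (1.42%), with 0 members in both.

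The other germinal centre genes were described in the averaged UVB comparison. Of 16, 2 rose and 1 fell, 18.8% of the list beside 8.61% of all tested genes. The list median was 0.18, where that of all tested genes was 0.01. DESeq2 called 5 higher and 1 lower, with 14.7% of all genes called. *Efnb1* rose by 0.71 ± 0.18 (SE, edgeR adjusted p = 0.0303) and *Cd83*, an activation marker of light zone B cells and dendritic cells, by 0.59 ± 0.16 (SE, edgeR adjusted p = 0.0465), and *Foxo1* fell by 0.27 on the log2 scale (edgeR adjusted p = 0.0470). These 3 calls were lost in 9, 11 and 10 of the 12 fits that left out a library. Among the members, TG NoTx replicate 6 was the highest untreated library for *Mybl1*, *S1pr2* and *Mef2b*, and WT UVB replicate 7 was the highest library of all for the same 3 genes.

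Of 12 tested immunoglobulin constant genes, 2 rose after UVB and 10 did not pass (16.7% called, beside 8.61% of all tested genes). *Ighg1*, the heavy chain of IgG1, was 4.89, 11.9 and 2.98 CPM in WT NoTx, 9.08, 2.55 and 12.2 CPM in TG NoTx, 85.9, 24.9 and 25.7 CPM in WT UVB and 72.1, 24.4 and 21.8 CPM in TG UVB nodes. All 6 UVB libraries were above all 6 untreated libraries, in both genotypes, as for 1.60% of all tested genes. The difference was 2.55 ± 0.59 (SE, 5.86-fold, edgeR adjusted p = 0.0360). The call was kept in 4 of 12 fits that left out a library, with a highest adjusted p of 0.0899, and the log2 difference was between 2.13 and 2.92. *Igha* rose by 1.51 ± 0.43 (SE, edgeR adjusted p = 0.0483) at 0.397 to 6.61 CPM, and its call was kept in 2 of 12 such fits.

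T follicular helper genes were described next, and the part of other T cells in their values was not tested. Of 10 tested, 3 rose and 0 fell (30.0%, beside 8.61% of all tested genes), with a list median of 0.15. *Icos* was 29.4 to 46.2 CPM without UVB and 51.1 to 85.1 CPM after UVB, without overlap, and rose by 0.90 ± 0.13 (SE, edgeR adjusted p = 0.00672), a call kept in 12 of 12 fits that left out a library. *Il21*, the cytokine that drives germinal centre B cells, rose by 1.71 ± 0.40 (SE, edgeR adjusted p = 0.0246) from 0.215 to 0.676 CPM to 0.418 to 2.94 CPM, kept in 6 of 12 such fits. *Maf* rose by 0.39 ± 0.11 (SE, edgeR adjusted p = 0.0475), kept in 2 of 12. Over the same comparison 0 of 10 B cell markers were called with edgeR, 1 had an unadjusted p under 0.05 and DESeq2 called 1, while 1 of 8 T cell markers fell. With edgeR 4 of 8 mitosis genes rose, and 8 with DESeq2, with sums of 69.4 to 151 CPM without UVB and 132 to 305 CPM after UVB. The part of dividing cells in the *Mybl1* and *S1pr2* values was not tested.

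**Figure D4:**
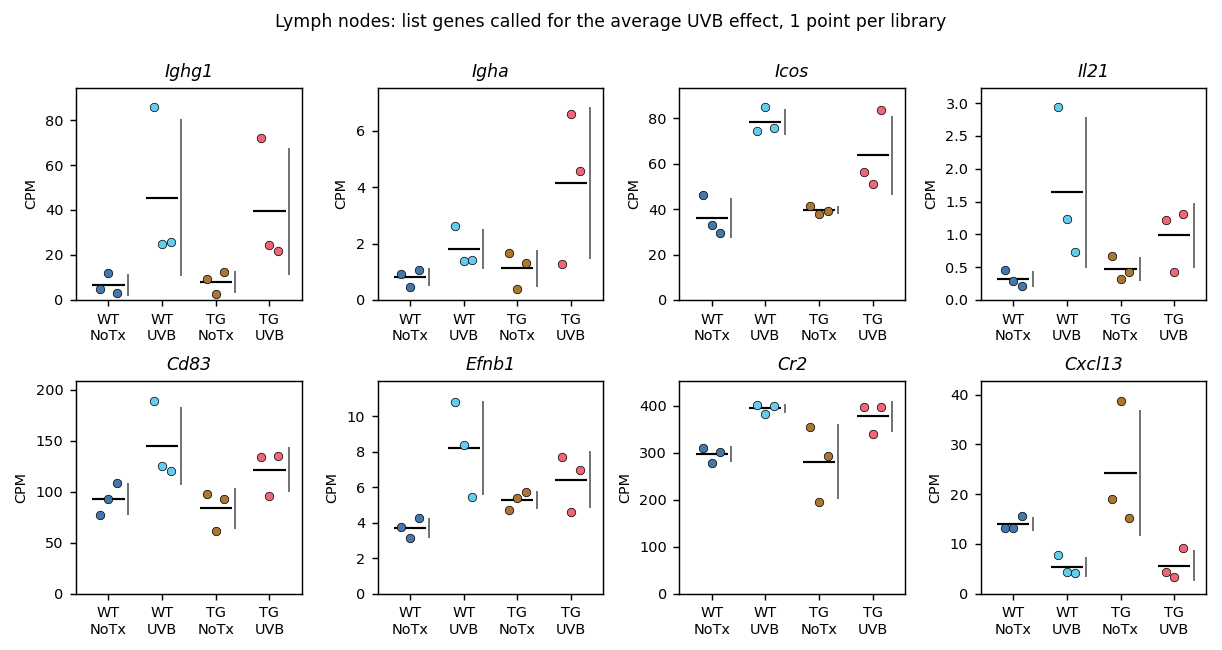
CPM of selected germinal centre, immunoglobulin, T follicular helper and stromal genes in each lymph node library (points), with group mean (bar) and SD (vertical line). *Ighg1* is 21.8 to 85.9 CPM in all UVB libraries and 2.55 to 12.2 CPM in all untreated ones.

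Stromal genes of the follicle mostly fell after UVB among those called. Of 9 follicular dendritic cell genes, 3 fell and 1 rose (44.4%, beside 8.61% of all tested genes). *Cxcl13*, the chemokine that draws B cells into follicles, was 13.2 to 38.8 CPM without UVB and 3.27 to 9.15 CPM after UVB, without overlap, a difference of -1.75 ± 0.31 (SE, edgeR adjusted p = 0.0146) kept in 12 of 12 fits that left out a library. *Enpp2* fell by 1.28 on the log2 scale (edgeR adjusted p = 0.0164), kept in 12 of 12, and *Mfge8* by 1.01 (edgeR adjusted p = 0.0384), kept in 3 of 12. The complement receptor *Cr2*, which B cells also carry, rose by 0.42 ± 0.11 (SE, edgeR adjusted p = 0.0398) and was named after its values were seen. Of 8 endothelial and stromal markers 2 fell and 0 rose, with sums of 288 to 345 CPM without UVB and 206 to 275 CPM after UVB, and 6 of 6 erythroid markers fell. The part of stroma and blood carried over with a node was not tested.

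Of 9 plasma cell survival and homing genes, 1 rose and 2 fell after UVB (33.3%, beside 8.61% of all tested genes). *Cxcr3*, a receptor for interferon-induced chemokines on plasmablasts and T cells, rose by 0.56 ± 0.10 (SE, edgeR adjusted p = 0.0118), kept in 12 of 12 fits that left out a library. *Cxcl12*, the chemokine that keeps plasma cells in the medullary cords, fell by 1.66 (edgeR adjusted p = 0.0471), kept in 2 of 12, and *S1pr1* by 0.28 (edgeR adjusted p = 0.0295), kept in 6 of 12. Of 16 other plasma cell genes, *Sec11c* rose by 0.40 ± 0.10 (SE, edgeR adjusted p = 0.0318), *Cav1* fell by 1.81 (edgeR adjusted p = 0.0209) and *Pdk1* fell by 0.36 (edgeR adjusted p = 0.0247), kept in 5, 10 and 10 of 12 such fits. *Cav1* is expressed in endothelial cells and adipocytes, and their part in its fall was not tested. Of the 16 unfolded protein response and secretory genes, 0 were called with edgeR or DESeq2 and 1 had an unadjusted p under 0.05 with each tool. The most abundant, *Hspa5* and *Edem1*, averaged 463 and 177 CPM and differed by 0.18 and 0.10 on the log2 scale.

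Across the 12 node libraries the genes most like the germinal centre members were listed in the same way among 13453 genes. *S1pr2* was closest to *Kif2c*, *Fignl1* and *Knl1* (r = 0.971, 0.948 and 0.940) and *Mybl1* to *Eaf2*, *Knl1* and *Ttk* (r = 0.970, 0.959 and 0.956), of which *Kif2c*, *Knl1* and *Ttk* act in chromosome segregation. *Mef2b* was close to *Rgs13* and *H1f10* (r = 0.931 and 0.923), the first being a germinal centre B cell gene. *Bcl6* was closest to *Pgap1*, *Zbtb18* and *Cmtm7* (r = 0.933, 0.929 and 0.924). *S1pr2* and *Mybl1* had r = 0.949 with each other and *Mef2b* and *Mybl1* r = 0.863, whereas *Prdm1* and *Mybl1* had r = -0.12. These values describe 12 libraries that share the UVB groups.

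**Figure D5:**
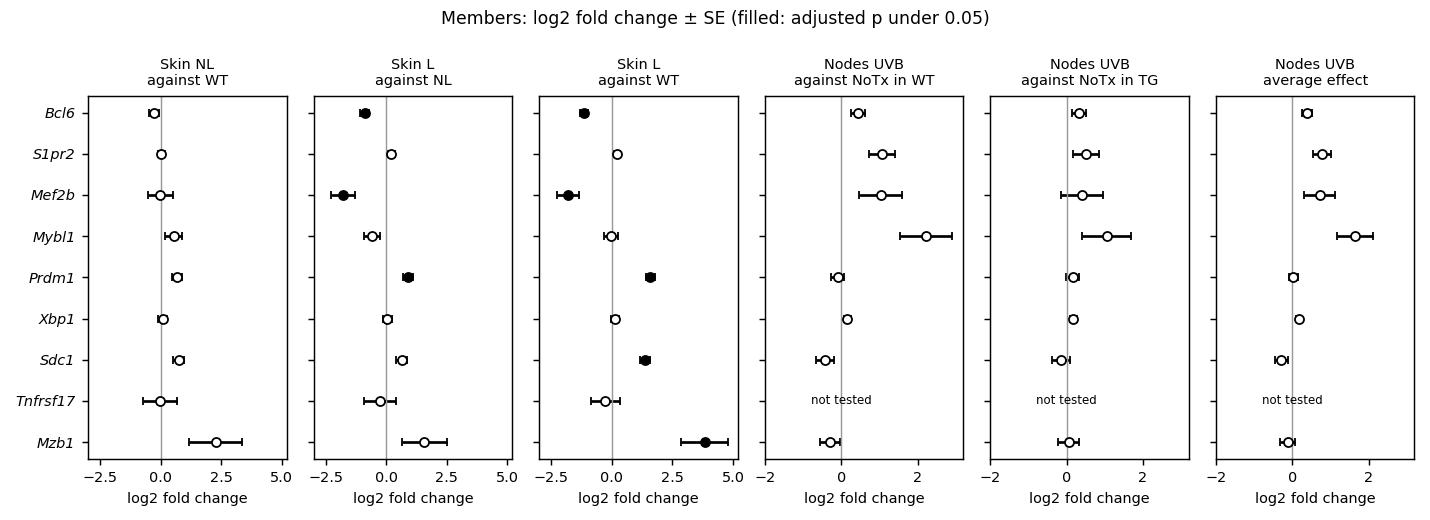
Log2 fold change ± SE of each member in the comparisons of skin and nodes, filled where the edgeR adjusted p was under 0.05. Filled points occur in L against WT skin (5 members) and L against NL skin (3 members), and in none of the 3 lymph node comparisons drawn.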

How the data were processed

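RNA was measured in 9 skin and 12 inguinal lymph node libraries, grouped by the labels. The authors made poly-A libraries, trimmed reads (cutadapt 4.8), aligned them to GRCm38 (STAR 2.7.8a) and deposited expected counts per gene from RSEM 1.3.3, as whole numbers without normalization, per the submitters' processing notes. The annotation release is not given in the sources used here. Low genes were removed with filterByExpr (minimum 10 counts, 15 in total; edgeR 4.0.16 under R 4.3.3), TMM factors scaled the libraries, and groups were compared by the edgeR quasi-likelihood F-test fitted over all libraries of a tissue. The p-values were adjusted (Benjamini-Hochberg) across all 19101 skin or 16173 node genes tested. SE came from the F statistic. RPKM used merged exon lengths of GENCODE M21. Depth was 27599809 to 56511276 counts per library, and intervals and floors cover counting error only. No 2 libraries of the same group agreed within sampling noise (lowest chi-square per gene 15.3).

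All members were named, and of each other list at most the 3 called genes with the largest difference, or the 2 most abundant where none was called, plus exceptions stated in the text. The members, lists and motifs were chosen with earlier results of these data known. Alternatives were DESeq2 1.42.0, RLE scaling, no filter, only the compared groups, a B cell marker covariate in nodes, and each library left out. The fit was tested on simulated data with 200 changed genes. Some list genes are not reported here.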

Additional observations from a re-analysis of the deposited data

Results flagged for a closer look

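*Igha* in lesional skin replicate 6, at 96.5 CPM, stood apart from the other 3 L libraries (3.03 to 13.5 CPM), and *Sdc1* in lesional skin replicate 5, at 858 CPM, stood apart from the other 3 (522 to 533 CPM). In both the gap to the next library, as a share of the group's range, exceeded Dixon's 95% critical value for 4 samples. Of 29 genes looked at in this way 2 exceeded it, and chance alone gives about 1 in 20 groups. L replicate 6 was also the highest library for *Mzb1*, *Jchain* and *Igkc*. The *Sdc1* difference between L and WT was called in every fit that left out a library, with a log2 difference between 1.17 and 1.45.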

How the results depend on the processing

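No paired analysis was possible because the labels do not say which samples came from the same mouse. In L against WT skin, 5 members were called under all 4 alternatives that kept every library and 4 to 5 when 1 was left out. In L against NL skin, 3 were called, 3 to 4 under those alternatives, and 0 to 4 when 1 library was left out, with 0 without NL replicate 2 or 3, where 7.30% and 5.85% of all genes were called in place of 25.0%. For UVB in WT nodes, DESeq2 called 2 members in place of 0 (with 14.3% of all genes) and a fit of only the compared groups 3 (15.9%). For the averaged UVB effect, DESeq2 called 3 (14.7%), the B cell marker covariate 1 (*Bcl6*, 9.82%), and fits without 1 library 0 to 2. The cause of these differences was not tested. The counts of NL against WT skin, UVB in TG nodes, the genotype comparisons and the interaction stayed at 0. Of the called members' differences, 32 kept their call and 0 lost it with every library kept, and 63 kept it and 9 lost it when 1 was left out. Of the called list genes' differences, 134 and 13, and 253 and 129. None changed direction. Depth limits *Tnfrsf17* in nodes and *Mef2b* and *Mzb1* in skin.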
